A study of Mus musculus with 6 samples.

Results

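The heat shock and DnaJ chaperone genes measured here are 74 of the 24411 gene symbols in the count tables. They were chosen by symbol alone: the DnaJ genes of subfamilies A, B and C, the Hsp90, Hspa and Hspb genes, Hspd1, Hspe1, Hsph1, and the heat shock factors Hsf1 and Hsf2. RNA was sequenced in bulk from mouse tissue at postnatal day 18, with 3 wild-type libraries (WT) and 3 from mice in which a large enhancer of Atoh7, a transcription factor gene, was knocked out (enhancer KO). Retina is written in the source and tissue fields of the labels, but cerebellum in the protocol and the design text. The labels call the libraries independent replicates but give no strain, animal, litter, sex or zygosity, and do not say where in the genome the deletion lies. P-values therefore measure the spread between these libraries, which may be partly technical.

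Molecular chaperones hold, fold or refold other proteins. Hsp70 proteins bind short stretches of an unfolded chain in cycles of ATP use, DnaJ proteins bring them clients and start the hydrolysis of ATP, and Hsp90 takes over many signalling proteins at a late step of folding. Inducible genes such as Hspa1a, Hspa1b and Dnajb1 are switched on by heat shock factor 1 when proteins unfold, whereas relatives such as Hspa8 and Hsp90ab1 are made in unstressed cells, and neurons are known for a weak induction of the inducible Hsp70 genes. Mitochondria and the endoplasmic reticulum hold chaperone sets of their own.

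Heat shock factor binds neighbouring copies of the bases GAA in alternating orientation, so promoter windows of the members were searched for such elements on both strands. A strict element was GAANNTTCNNGAA or TTCNNGAANNTTC (reverse complements of each other), and a loose one was GAANNTTC or TTCNNGAA, each its own reverse complement and each held within the strict ones. Windows ran from 250 bases upstream to 50 bases downstream of RefSeq start sites (GRCm38.p6), and 59 of the 74 members had one. A strict element lay in 4 of the 59, Hspd1, Hspe1, Hsph1 and Dnajb6, which is 6.78%, against 0.662% of the 27025 genes with a window. A loose element lay in 16 of the 59, or 27.1%, against 17.0% of all genes. Of the inducible genes, Dnaja1, Dnajb4, Hspa1a, Hspa1b, Hspb1 and Hsph1 held a loose element, whereas Dnajb1 had windows without a match. A match is a description of the letters and shows no binding. The stretches below are shown because they carry the strict elements, or belong to the inducible genes Dnajb4, Hspa1a and Hspa1b described next, with the elements in capitals.
Hspe1, chr1:55088053-55088082, plus strand: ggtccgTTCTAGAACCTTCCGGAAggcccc
Dnajb6, chr5:29735844-29735873, plus strand: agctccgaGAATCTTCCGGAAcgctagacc
Hsph1, chr5:149636279-149636308, minus strand: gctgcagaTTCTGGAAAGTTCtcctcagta
Dnajb4, chr3:152193841-152193870, minus strand: ttcgttcgctgTTCTAGAAagtacagagac
Hspa1a, chr17:34972157-34972306, minus strand: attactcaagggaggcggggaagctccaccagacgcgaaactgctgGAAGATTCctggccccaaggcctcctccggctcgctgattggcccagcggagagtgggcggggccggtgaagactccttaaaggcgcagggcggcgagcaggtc
Hspa1b, chr17:34959239-34959388, minus strand: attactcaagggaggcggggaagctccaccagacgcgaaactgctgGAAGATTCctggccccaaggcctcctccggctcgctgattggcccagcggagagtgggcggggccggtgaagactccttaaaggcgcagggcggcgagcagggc

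The capitals in the Hspe1 stretch span 18 bases of overlapping elements, which lie between a start site of Hspd1 and that of Hspe1. From these starts, 216 bases apart, the genes are transcribed away from each other, so the same letters serve both windows. A further RefSeq start of Hspd1, at chr1:55088243, lies past the Hspe1 start at chr1:55088148. The stretch lies downstream of that Hspd1 start, and also in an exon of a longer annotated Hspd1 transcript. The Hsph1 element lies downstream of its start site. The upstream stretches of Hspa1a and Hspa1b carry the same loose element, GAAGATTC, and differ at 1 of 150 positions, T149G (Hspa1a base first, counted from 1 at the 5′ end).

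Per library, 22812075 to 33076111 reads fell in genes in WT and 36849747 to 40858310 in enhancer KO. Reads that met no annotated exon made up 32.4% ± 1.56 of the WT libraries and 17.4% ± 0.735 of the enhancer KO libraries (SD, n = 3 each). Reads that aligned to several places, which were counted for no gene, made up 7.60% ± 0.563 and 10.8% ± 0.550 (SD, n = 3 each). The part of these differences in the results was not tested. WT replicate 2 stood apart, with 20.4% of its reads unmapped, against 7.79% to 8.32% elsewhere, and with the fewest reads in genes. Atoh7 had 63, 42 and 72 reads in WT and 28, 33 and 29 in enhancer KO, lower by 1.41 ± 0.205 (SE) on the log2 scale (edgeR adjusted p = 0.000353). Cerebellar neuron markers summed to 3046 to 3780 counts relative to scaled library size (CPM) in WT and 3202 to 3726 in enhancer KO, and retinal markers to 9.47 to 12.8 and 10.2 to 10.6. The retina named in the source field was thus near absent by its defining markers. The cerebellar sum hid opposite moves: 7 of the 10 neuron markers were lower, 2 were higher, and the median log2 difference was -0.56, a wider shift than that of most members. Gabra6, a receptor subunit of granule neurons, had 260, 396 and 304 CPM in WT and 141, 137 and 199 CPM in enhancer KO. Car8, abundant in Purkinje cells, had 742, 883 and 913 CPM in WT and 1135, 1134 and 1285 CPM in enhancer KO. The groups did not overlap for either gene, both of which were picked after their values were seen. The count of lower markers was 4 without WT replicate 2, WT replicate 3, enhancer KO replicate 1 or enhancer KO replicate 2, each left out alone, while the 2 higher ones held. Over all genes, those fits called 2382, 2260, 2181 and 2232 lower, against 2844 with all libraries. WT replicate 1 held 34185 Xist reads, against 28 to 50 elsewhere, and Ddx3y had no read in WT replicate 1 and 1916 to 4405 reads in the others. By these sex-linked transcripts WT replicate 1 had the pattern of a female and the other libraries that of males. The counts of members that rose and fell are therefore also given without WT replicate 1.

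Of the 74 members, 67 had enough reads to be tested, and 22 differed between the groups at an edgeR adjusted p under 0.05. Expression rose for 16 members, 23.9% of those tested, and fell for 6, or 8.96%. Over all 15846 genes tested, 13.4% were higher in enhancer KO, 17.9% were lower and 31.3% differed in either direction. The members' total was thus near the background, with more of it upward. Counts on the role, partner and marker lists below stand beside the same shares of all genes. Without WT replicate 1 the counts were 17 and 7, beside 13.8% and 16.9% of all genes. With library size alone in place of the scaling for composition they were 15 and 2, beside 2165 and 1689 of the 15846 genes. The lower share of calls over all genes moved from 57.3% to 43.8%. Without WT replicate 3 only 10 members rose, and 9.21% of all genes. Leaving out enhancer KO replicate 2 left 9 that rose, and 8.89% of all genes. Leaving out enhancer KO replicate 1 left 3 that fell, and 13.7% of all genes. A fit that removed the trend of each library over GC content, spliced length and intron length gave 21 higher and 5 lower. Over all 15846 genes that fit called 2590 higher and 2324 lower, so 47.3% of the calls were lower. The reported fit called 2120 higher and 2844 lower.

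The changes were small. Fitted log2 differences of the tested members ran from -0.41 to 0.75 with a median of 0.05, against a median of 0.00 over all genes tested, and 42 lay above 0. The lowest was that of Hspa1l, with 72 reads over the 6 libraries. No member changed by more than 2-fold, and the median change was 19.0% among those that rose and -15.4% among those that fell. Of the 67 members tested, WT and enhancer KO values did not overlap for 20 that were higher and 7 that were lower. Over all genes tested, 20.5% and 24.3% were separated in the same way. The members' share was thus larger for the higher genes and smaller for the lower ones. In bulk RNA, fewer cells of a type and less RNA per cell cannot be told apart.

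**Figure D1:**
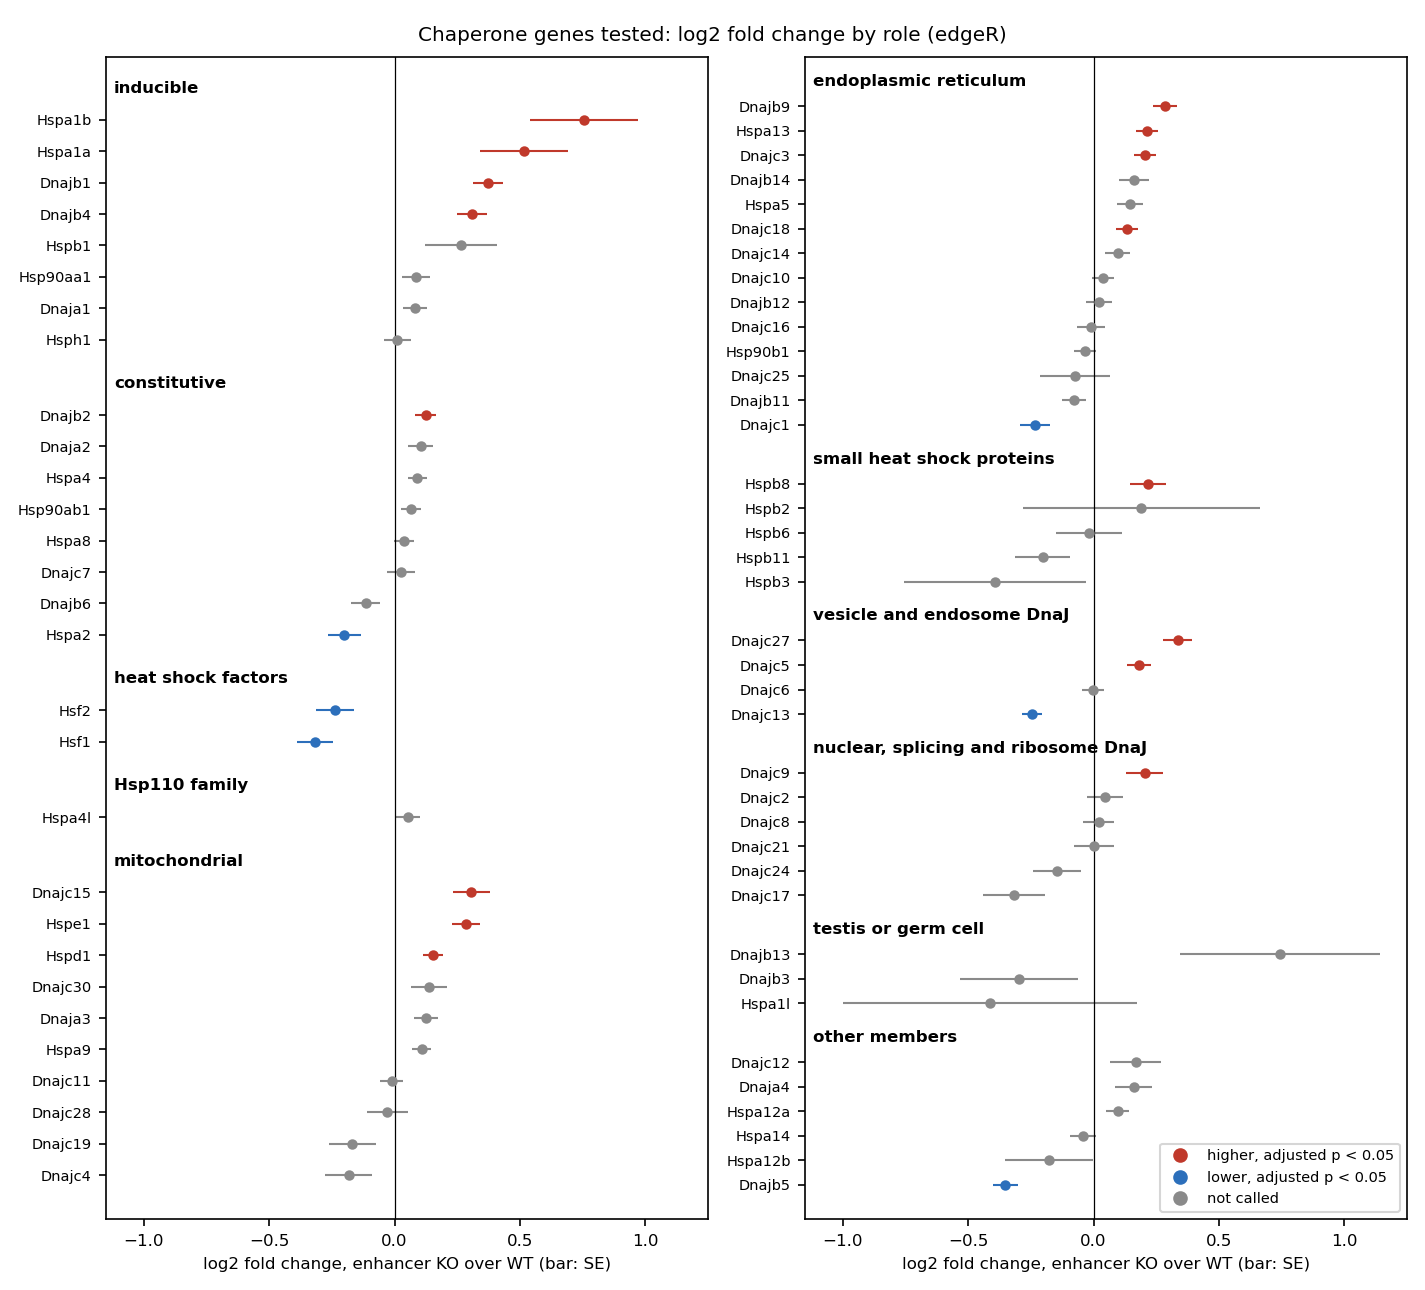
Log2 difference (enhancer KO over WT) of each tested member, grouped by role on the vertical axis, with bars of 1 SE. Red and blue points mark members higher and lower at an edgeR adjusted p under 0.05, and grey points the others. Both heat shock factors lie to the left of 0, and the 3 called mitochondrial members to the right. A gene with several roles is drawn once.

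The members not tested were Hspb7, Hspb9, Dnajb7, Dnajb8, Dnajc5b, Dnajc5g and Dnajc22, none of which had more than 37 reads over the 6 libraries. Of these, 4 had under 10 reads in all, and Dnajb8 had 0. Together the 74 members took 0.667% to 0.792% of gene reads. Per kilobase of spliced length, the highest WT levels were those of the constitutive Hsp70 gene Hspa8, at 318 CPM per kilobase, and the constitutive Hsp90 gene Hsp90ab1, at 302. Hsp90aa1, the inducible Hsp90, stood at 164 CPM per kilobase on that scale. The inducible Hsp70 genes Hspa1a and Hspa1b stood at 1.13 and 1.23. Reads that align to several places were not counted, so genes that share sequence may be understated, and ratios between genes shifted. Of the 100-base words of their transcripts, 47.5% for Hsp90aa1 and 32.1% for Hspa8 also occur in other transcripts, and 0% for Hsp90ab1. The shares were 56.5% for Hspa1a and 49.9% for Hspa1b.

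Among the inducible cytosolic genes, 4 of 8 rose, none fell, and the median log2 difference was 0.29. Of all genes tested, 13.4% rose and 17.9% fell. The count was 2 without WT replicate 2, WT replicate 3, enhancer KO replicate 1 or enhancer KO replicate 2, each left out alone. Over all genes, those fits called 1803, 1479, 1690 and 1420 higher, against 2120 with all libraries. Dnajb1, the main DnaJ partner of Hsp70 in the stress response (chr8:83608193-83612653, plus strand, mm10), had 42.5, 38.2 and 37.3 CPM in WT and 53.6, 49.5 and 49.8 CPM in enhancer KO. Every enhancer KO library lay above every WT library. The log2 difference was 0.37 ± 0.060 (SE, edgeR adjusted p = 0.000660), a rise of 29.6%. Dnajb4, a relative of Dnajb1 (chr3:152178511-152210302, minus strand), had 48.3, 44.5 and 44.8 CPM in WT and 52.6, 59.9 and 58.2 CPM in enhancer KO. The groups again did not overlap, and Dnajb4 rose by 0.31 ± 0.059 (SE, edgeR adjusted p = 0.00200). Both kept their call under all 16 alternatives.

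Hspa1a and Hspa1b, neighbouring copies of the inducible Hsp70 gene on chromosome 17, showed the highest fold among the members that rose, at low levels. Hspa1a had 3.61, 2.88 and 3.55 CPM in WT and 4.78, 5.93 and 3.81 CPM in enhancer KO. Hspa1b had 4.07, 3.17 and 3.14 CPM in WT and 7.26, 6.35 and 4.05 CPM in enhancer KO. For Hspa1a the groups stood apart by a narrow margin, and for Hspa1b enhancer KO replicate 3 lay just under WT replicate 1. The log2 difference was 0.52 ± 0.175 (SE, edgeR adjusted p = 0.0410) for Hspa1a and 0.75 ± 0.215 (SE, edgeR adjusted p = 0.0231) for Hspa1b. Of the 100-base words of their transcripts, 56.5% for Hspa1a and 49.9% for Hspa1b also occur in other transcripts, mostly each other's. Reads that align to several places were not counted for any gene, so the levels of both may be understated. The calls were not stable, although the log2 differences stayed above 0 under all 16 alternatives. They ran from 0.35 to 0.66 for Hspa1a and from 0.55 to 0.97 for Hspa1b. Fits that leave a library out also hold fewer samples. Hspa1a lost its call without WT replicate 2 (edgeR adjusted p = 0.108), WT replicate 3 (0.0825), enhancer KO replicate 1 (0.0745) or enhancer KO replicate 2 (0.185). Hspa1b lost it without the same libraries (edgeR adjusted p = 0.0739, 0.0979, 0.0623 and 0.0746). With limma-voom both were lost (adjusted p = 0.0818 for Hspa1a and 0.0506 for Hspa1b). Enhancer KO replicate 3, with the lowest levels of both genes in its group, also had the lowest sum of choroid plexus markers. The sums were 1127, 1415 and 1782 CPM in WT and 1774, 1948 and 772 CPM in enhancer KO. In WT the order differed, as replicate 1 had the lowest sum and the highest levels of both genes. The part of these markers in the result was not tested.

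The other inducible genes gave no call. Hsp90aa1 had 644, 686 and 602 CPM in WT and 663, 662 and 726 CPM in enhancer KO, a log2 difference of 0.09 (edgeR adjusted p = 0.274). Dnaja1, a farnesylated DnaJ partner of Hsp70, had 160, 164 and 146 CPM in WT and 161, 166 and 169 CPM in enhancer KO, a log2 difference of 0.08 (edgeR adjusted p = 0.219). Hsph1, a nucleotide exchange factor of the Hsp110 family, had 142, 132 and 124 CPM in WT and 139, 134 and 129 CPM in enhancer KO. In each of these 3 genes the groups overlapped. With the trend over gene structure removed, Dnaja1 was called, with a log2 difference of 0.19 (edgeR adjusted p = 0.00605). Hspb1, a small heat shock protein that holds unfolded clients, had 6.14, 7.52 and 6.39 CPM in WT and 7.84, 9.57 and 6.52 CPM in enhancer KO (edgeR adjusted p = 0.193). Without enhancer KO replicate 3, again the lowest of its group, the log2 difference of Hspb1 was 0.40 (edgeR adjusted p = 0.0353).

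**Figure D2:**
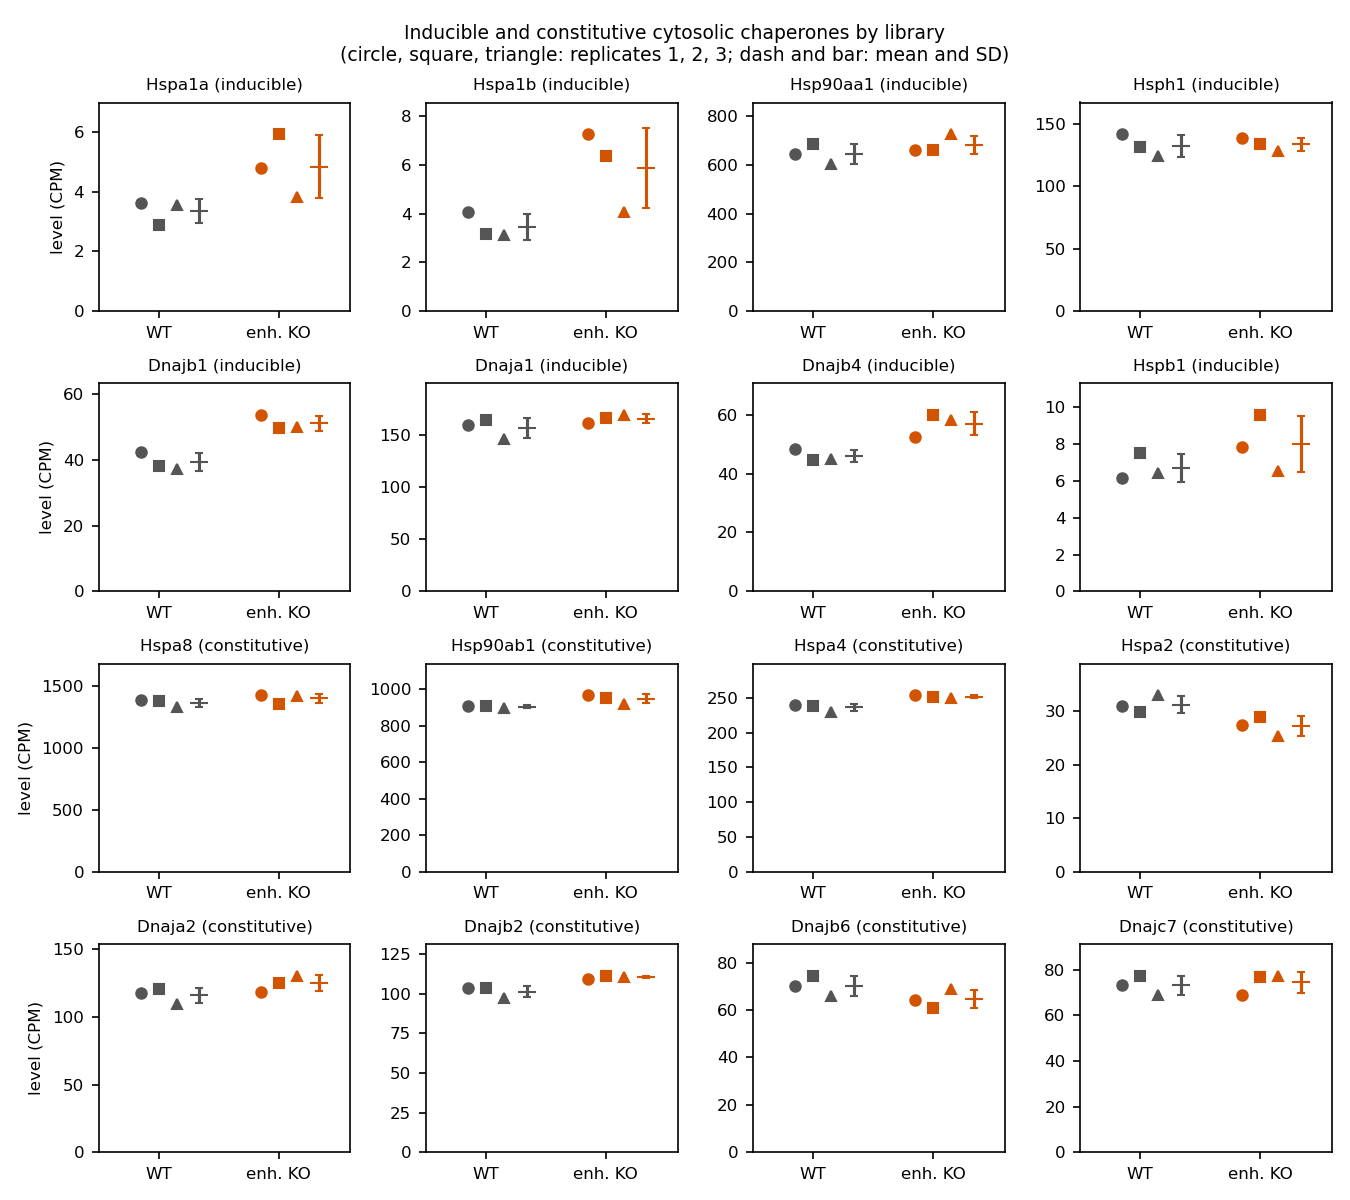
Level in CPM (linear axis from 0) of the 8 inducible and 8 constitutive cytosolic genes in each library, with the mean and SD of 3 libraries beside the points. Dnajb1 and Dnajb4 stand clear of WT in all enhancer KO libraries, and enhancer KO replicate 3 (triangle) is the lowest of its group for Hspa1a, Hspa1b and Hspb1.

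Among the constitutive cytosolic genes, 1 of 8 rose and 1 fell, with a median log2 difference of 0.05. Hspa8, the most abundant member by reads, had 1388, 1382 and 1327 CPM in WT and 1426, 1357 and 1418 CPM in enhancer KO (edgeR adjusted p = 0.539). Hsp90ab1 had 909, 910 and 896 CPM in WT and 967, 954 and 920 CPM in enhancer KO (edgeR adjusted p = 0.243). The groups overlapped for Hspa8 and stood apart for Hsp90ab1, where the log2 difference was 0.07. Dnajb2, a neuronal DnaJ that passes clients to the proteasome, had 103, 103 and 97.0 CPM in WT and 109, 111 and 110 CPM in enhancer KO, and rose by 0.12 ± 0.042 (SE, edgeR adjusted p = 0.0391). Hspa2, a Hsp70 best known from male germ cells, had 30.9, 29.8 and 33.0 CPM in WT and 27.4, 28.9 and 25.3 CPM in enhancer KO, and fell by 0.20 ± 0.066 (SE, edgeR adjusted p = 0.0365). The groups stood apart for both genes. The edgeR adjusted p of Dnajb2 was 0.155 without WT replicate 3, and 0.0560, 0.102 and 0.0639 without enhancer KO replicates 1, 2 and 3. That of Hspa2 was 0.155 without WT replicate 3 and 0.0910 and 0.123 without enhancer KO replicates 1 and 3, and with library size alone it was 0.284.

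The remaining constitutive genes did not pass. Hspa4, an Hsp110 family member, had 240, 238 and 230 CPM in WT and 254, 251 and 250 CPM in enhancer KO, with no overlap and an edgeR adjusted p of 0.0893. It was called with the trend over gene structure removed (edgeR adjusted p = 0.0466) and on reads of either strand (0.0384). Dnaja2, Dnajb6 and Dnajc7, which serve Hsp70 in the cytosol, had log2 differences of 0.11, -0.11 and 0.03 (edgeR adjusted p = 0.133, 0.154 and 0.771). Of the Hsp110 family, Hspa4, Hspa4l and Hsph1, none of 3 was called, and Hspa4l differed by 0.05 (edgeR adjusted p = 0.438). After removal of the gene-structure trend Hspa4l was called, at a log2 difference of 0.18 (edgeR adjusted p = 0.0108).

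Summed over the 8 genes, the inducible level was 1032 ± 57.5 CPM in WT and in enhancer KO 1110 ± 31.9 CPM (SD, n = 3 each), and 1 gene, Hsp90aa1, made up most of it. The constitutive sum went from 2899 ± 61.1 in WT to 3000.1 ± 34.5 CPM in enhancer KO. Inducible CPM per 100 constitutive CPM were 35.8, 36.7 and 34.2 in WT and 35.9, 36.9 and 38.2 in enhancer KO. These ratios overlapped between the groups, and the difference of their log2 values, 0.06, was close to the spread within a group. No test was made of a sum over members. The pairs with Hspa8 below differed more, while Hsp90aa1 against Hsp90ab1 moved by less than the spread within a group. Dnajb1 per 100 Hspa8 was 2.88 ± 0.159 in WT libraries and 3.64 ± 0.123 in enhancer KO libraries (SD, n = 3 each). Hspa1a and Hspa1b together per 1000 Hspa8 were 5.53, 4.38 and 5.04 in WT and 8.45, 9.04 and 5.55 in enhancer KO, which leaves enhancer KO replicate 3 at the top of the WT range. Hsp90aa1 per 100 Hsp90ab1 was 71.1 ± 4.11 in WT and 72.3 ± 5.76 in enhancer KO (SD, n = 3).

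Both heat shock factors fell. Hsf1, the factor that switches on the inducible genes (chr15:76477422-76501913, plus strand), had 29.7, 26.3 and 29.3 CPM in WT and 24.7, 22.2 and 21.8 CPM in enhancer KO. All enhancer KO libraries lay below all WT libraries, and Hsf1 fell by 0.32 ± 0.071 (SE, edgeR adjusted p = 0.00521), a call kept under all 16 alternatives. Hsf2, a relative with roles in development, had 30.7, 36.4 and 33.0 CPM in WT and 26.9, 26.8 and 30.9 CPM in enhancer KO, and fell by 0.24 ± 0.077 (SE, edgeR adjusted p = 0.0347). Its groups overlapped, with enhancer KO replicate 3 just above WT replicate 1. Without WT replicate 2, WT replicate 3, enhancer KO replicate 1 or enhancer KO replicate 2 the edgeR adjusted p of Hsf2 was 0.162, 0.0855, 0.150 and 0.127. After removal of the gene-structure trend, its log2 difference was -0.10 (edgeR adjusted p = 0.251), and with library size alone it was -0.17 (0.153).

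Of 10 mitochondrial members, 3 rose and none fell, beside 13.4% and 17.9% of all genes tested. The median log2 difference was 0.12. Hspe1 and Hspd1, the Hsp10 lid and the Hsp60 ring of the mitochondrial folding chamber, share the start region shown above (Hspe1 chr1:55088132-55091307, plus strand, and Hspd1 chr1:55077835-55088243, minus strand). Hspe1 had 34.5, 38.9 and 36.3 CPM in WT and 44.1, 44.5 and 44.7 CPM in enhancer KO. Hspd1 had 139, 142 and 138 CPM in WT and 149, 157 and 158 CPM in enhancer KO. The groups stood apart for both. Hspe1 rose by 0.28 ± 0.054 (SE, edgeR adjusted p = 0.00208) and Hspd1 by 0.15 ± 0.040 (SE, edgeR adjusted p = 0.0136). The call of Hspd1 was lost without enhancer KO replicate 2 (edgeR adjusted p = 0.0615), and 26.9% of the 100-base words of its transcript also occur in other transcripts, mainly of a pseudogene. Dnajc15, a DnaJ of the mitochondrial inner membrane, had 22.6, 19.6 and 20.1 CPM in WT and 24.7, 25.1 and 27.4 CPM in enhancer KO, with no overlap. It rose by 0.31 ± 0.073 (SE, edgeR adjusted p = 0.00727). Hspa9, the mitochondrial Hsp70, named after its values were seen, differed by 0.11 (edgeR adjusted p = 0.0511). It was called with RLE scaling (edgeR adjusted p = 0.0474) and on reads of either strand (0.0229).

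In the endoplasmic reticulum, 4 of 14 members rose and 1 fell, beside 13.4% and 17.9% of all genes tested. The median log2 difference was 0.07. Dnajb9, a DnaJ that holds the stress sensor IRE1 in check, had 42.4, 44.2 and 42.4 CPM in WT and 51.5, 51.3 and 54.3 CPM in enhancer KO. Hspa13, a microsomal Hsp70 relative, had 50.4, 48.5 and 50.5 CPM in WT and 57.1, 58.3 and 58.1 CPM in enhancer KO. Dnajc3, an inhibitor of the stress kinase PERK, had 82.1, 81.4 and 80.5 CPM in WT and 94.8, 97.3 and 89.4 CPM in enhancer KO. None of the 3 overlapped between the groups, and all 3 kept their call under the 16 alternatives. Dnajb9 rose by 0.29 ± 0.048 (SE), Hspa13 by 0.21 ± 0.044 and Dnajc3 by 0.21 ± 0.044, with edgeR adjusted p = 0.000889, 0.00325 and 0.00400.

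The member that fell was Dnajc1, a DnaJ of the endoplasmic reticulum membrane, with 30.9, 34.8 and 33.0 CPM in WT and 27.1, 28.0 and 28.6 CPM in enhancer KO. It fell by 0.24 ± 0.060 (SE, edgeR adjusted p = 0.0111) with no overlap, and the edgeR adjusted p was 0.0584 without WT replicate 2 and 0.0600 without enhancer KO replicate 1. Removal of the trend over gene structure gave 0.0553, and library size alone 0.145. Reads on the strand opposite to Dnajc1, where Mllt10 overlaps it in GENCODE, were 21.2% of its stranded reads and also lower in every enhancer KO library. The next genes were named after their values were seen. Dnajc18, the last of those that rose, had a log2 difference of 0.13 ± 0.043 (SE, edgeR adjusted p = 0.0336), and the call was lost without each library but WT replicate 1, at an edgeR adjusted p of 0.0553 to 0.133. Hspa5, the Hsp70 of the endoplasmic reticulum, differed by 0.15 (edgeR adjusted p = 0.0503), and the p was 0.0176 without WT replicate 1 and 0.0157 without enhancer KO replicate 3. Hspa5 was also called after removal of the gene-structure trend (edgeR adjusted p = 0.0360), with RLE scaling (0.0370), with no filter on low counts (0.0260), on reads of either strand (0.0261) and by DESeq2 (adjusted p = 0.0208). Hsp90b1, the Hsp90 of that compartment, differed by -0.04 and was not called.

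Of the 4 vesicle and endosome DnaJ genes tested, 2 rose and 1 fell. Dnajc27, a small GTPase with a J domain, had 156, 136 and 130 CPM in WT and 176, 176 and 180 CPM in enhancer KO, and rose by 0.33 ± 0.059 (SE, edgeR adjusted p = 0.00154). Dnajc5, the cysteine string protein of synaptic vesicles, had 326, 301 and 297 CPM in WT and 351, 340 and 358 CPM in enhancer KO, and rose by 0.18 ± 0.047 (SE, edgeR adjusted p = 0.0125). Dnajc13, which acts with Hsp70 on endosomes, had 86.6, 83.0 and 83.8 CPM in WT and 70.2, 71.6 and 72.0 CPM in enhancer KO, and fell by 0.24 ± 0.041 (SE, edgeR adjusted p = 0.000889). The groups stood apart for all 3. Without WT replicate 3 the edgeR adjusted p of Dnajc5 was 0.0559.

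Smaller role groups gave 1 call each or none. Of 6 small heat shock proteins tested, 1 rose, Hspb8, which works with the cochaperone Bag3 in selective autophagy. It had 19.2, 19.2 and 20.1 CPM in WT and 22.3, 24.7 and 21.1 CPM in enhancer KO, and rose by 0.22 ± 0.073 (SE, edgeR adjusted p = 0.0397). The groups did not overlap, but the edgeR adjusted p was 0.0793, 0.0758 and 0.0676 without WT replicates 1, 2 and 3, and 0.0570 and 0.182 without enhancer KO replicates 1 and 2. It was 0.0808 after removal of the gene-structure trend, and the adjusted p was 0.0573 with DESeq2 and 0.0539 with limma-voom. Of 6 nuclear, splicing and ribosome DnaJ genes, 1 rose, Dnajc9, a histone chaperone, from 17.3 ± 1.17 to 19.9 ± 0.745 CPM (SD, n = 3), by 0.20 ± 0.072 (SE, edgeR adjusted p = 0.0497). Its call was lost without any 1 library but WT replicate 3, at an edgeR adjusted p of 0.150 without WT replicate 1, 0.0898 without WT replicate 2, and 0.0739, 0.170 and 0.0554 without enhancer KO replicates 1, 2 and 3. It was 0.0941 after removal of the gene-structure trend, and the adjusted p was 0.0874 with DESeq2. Dnajb5, in none of these role groups, is a DnaJ related to Dnajb1 and Dnajb4. It had 44.4, 47.3 and 46.6 CPM in WT and 34.7, 36.7 and 36.9 CPM in enhancer KO, with no overlap, and fell by 0.35 ± 0.051 (SE, edgeR adjusted p = 0.000369) in the direction opposite to its relatives.

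Of the testis or germ cell members, 3 were tested and none passed. Dnajb13, a sperm flagellum and ciliary protein, differed by 0.74 (edgeR adjusted p = 0.184) and passed without enhancer KO replicate 3 (log2 difference 1.07, edgeR adjusted p = 0.0299). It had only 13, 15 and 16 reads in WT and 48, 34 and 19 in enhancer KO. Reads on the opposite strand made up 21.2% of its stranded reads. Markers of ependyma with motile cilia summed to 29.3 to 33.6 CPM in WT and to 46.1, 41.9 and 36.9 CPM in enhancer KO replicates 1, 2 and 3, and 2 of the 4 tested were higher. Dnajb3 and Hspa1l differed by -0.30 and -0.41 and were not called. Hspa1l had 2 to 20 reads per library, and 92.5% of its stranded reads lay on the opposite strand.

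**Figure D3:**
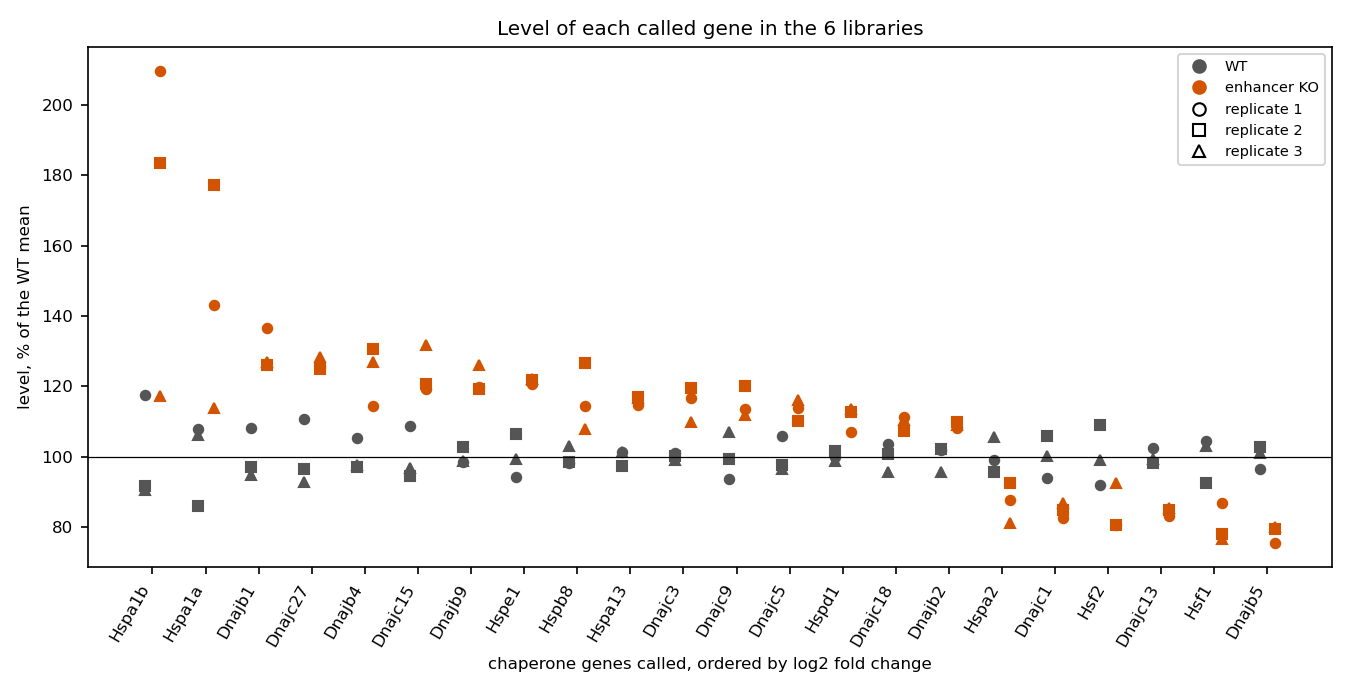
Level of each of the 22 called members in each library, in percent of its WT mean (linear axis that does not start at 0, line at the WT mean), with members ordered by log2 fold change. Grey points are WT, orange points enhancer KO, and the shape gives the replicate. Hspa1b and Hsf2 are the 2 called members whose groups overlap.

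Besides the cerebellar neuron markers, of which 7 of 10 were lower and 2 higher, markers of other cells moved with the groups. Over all genes tested, 13.4% were higher and 17.9% lower. Of 7 endothelial markers, 6 were lower, and their sum was 152 to 167 CPM in WT and 110 to 122.6 CPM in enhancer KO. Of 5 microglial markers, 3 were higher, with sums of 175 to 188 and 198 to 232 CPM. Immediate early genes, which respond to activity and handling, summed to 240 to 282 CPM in WT and 263 to 285 CPM in enhancer KO. Of these 12 genes, 1 was called, Fos, with a log2 difference of 0.32 (edgeR adjusted p = 0.0291). That call was lost without WT replicate 1 (edgeR adjusted p = 0.103), WT replicate 2 (0.0797) or enhancer KO replicate 3 (0.0673). The part of these cells and genes in the members' differences was not tested.

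Partners of the members were counted on lists of their own. Of 23 Hsp70 and Hsp90 cochaperones, 6 rose and 2 fell, beside 13.4% and 17.9% of all genes tested. The median log2 difference was 0.07. Ptges3, the p23 protein that stabilizes closed Hsp90, rose by 0.25 (edgeR adjusted p = 0.000540), and Fkbp5, an Hsp90-bound immunophilin of the glucocorticoid receptor, by 0.43 (edgeR adjusted p = 0.00202). Ahsa2, a relative of the Hsp90 ATPase activator, fell by 0.26 (edgeR adjusted p = 0.00338), and Bag6, which guards tail-anchored proteins, by 0.13 (edgeR adjusted p = 0.0249). With library size alone neither of these falls was called (edgeR adjusted p = 0.0928 and 0.577). Bag6 was also lost without WT replicate 3 (edgeR adjusted p = 0.0986) and without enhancer KO replicates 1, 2 and 3 (0.0708, 0.103 and 0.0731). After removal of the gene-structure trend its log2 difference was -0.03 (edgeR adjusted p = 0.589).

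Of 14 genes of the cytosolic folding chamber TRiC and its feeder prefoldin, 7 rose and none fell, with a median log2 difference of 0.10, where 13.4% of all genes tested were higher. The count was 4 without WT replicate 3, and 3 and 4 when enhancer KO replicates 2 and 3 were left out in turn. Over all genes, those fits called 1479, 1420 and 1992 higher, against 2120 with all libraries. Pfdn2, a prefoldin subunit, rose by 0.40 (edgeR adjusted p = 0.000636) and Cct7, a TRiC subunit, by 0.25 (edgeR adjusted p = 0.000872). Of 18 partners in the unfolded protein response of the endoplasmic reticulum, 3 rose and 1 fell, with a median of 0.08. The share that rose was near the 13.4% of all genes, and 17.9% of all genes fell. Pdia3, a disulfide isomerase, rose by 0.15 (edgeR adjusted p = 0.0116, and 0.0513 without WT replicate 3). Ddit3, the stress factor CHOP, rose by 0.35 (edgeR adjusted p = 0.0297), lost without WT replicates 2 and 3 (0.0591 and 0.0940) or enhancer KO replicates 1 and 2 (0.107 and 0.0568). Ern1, which encodes the sensor IRE1, fell by 0.46 (edgeR adjusted p = 0.00162).

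Of 10 mitochondrial quality control partners, 1 rose and 2 fell, with a median of 0.02. Both shares were near the 13.4% and 17.9% of all genes tested. Pam16, an import motor subunit, rose by 0.26 (edgeR adjusted p = 0.0118). Timm44, which anchors Hspa9 to the import channel, fell by 0.21 (edgeR adjusted p = 0.0154), and Trap1, the mitochondrial Hsp90, by 0.15 (edgeR adjusted p = 0.0241). Timm44 was lost without WT replicates 2 and 3 (edgeR adjusted p = 0.0523 and 0.0692) or enhancer KO replicates 1 and 2 (0.0897 and 0.0556), and with library size alone neither was called (0.232 and 0.460). Trap1 was lost without any 1 library but WT replicate 1, at an edgeR adjusted p of 0.0506 to 0.113.

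**Figure D4:**
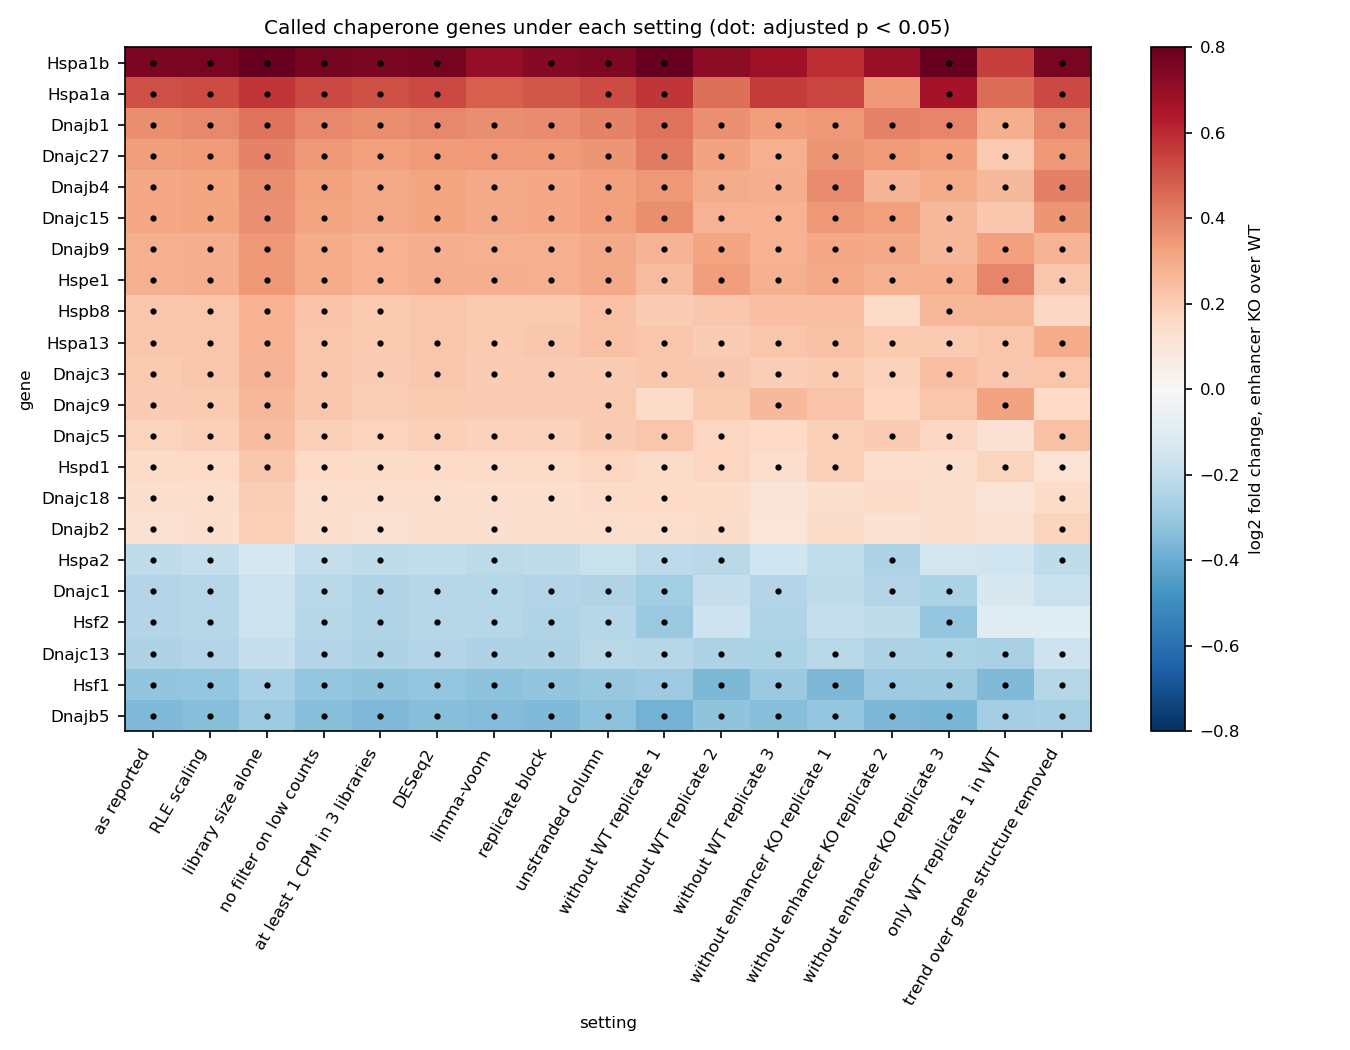
Log2 difference (colour, enhancer KO over WT) of the 22 called members in rows under the reported fit and 16 alternatives in columns, with a dot where the adjusted p was under 0.05. Dnajb1, Dnajb4, Dnajb5, Dnajb9, Dnajc27, Dnajc3, Hsf1, Hspa13 and Hspe1 have a dot in every column.

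Of the 22 calls, 9 were kept under all 16 alternatives and 11 under each removal of 1 library. Those 9 were Dnajb1, Dnajb4, Dnajb9, Dnajc27, Dnajc3, Hspa13 and Hspe1, which rose, and Dnajb5 and Hsf1, which fell. Dnajc13 and Dnajc15 also held under each removal. Dnajc13 was lost with library size alone (edgeR adjusted p = 0.0802). Dnajc15 was lost with WT replicate 1 as the only WT library, at a log2 difference of 0.21, where sex differs as well.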

How the data were processed

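The submitters' processing notes name Trimmomatic, STAR and mm10, so, per the submitters' processing notes, the authors used these for trimming and alignment. Their versions and the gene annotation: not given in the sources used here. All deposited files hold whole-number read counts per gene, with an unstranded column and 1 column per strand. Column 4 was used, since the other strand held 1.62% to 1.88% of stranded reads. The 4 rows that name no gene, 35.9% to 61.9% of all reads, were left out of every library size and test. Reads that align to several places were not counted for any gene, which makes near-identical copies less certain.

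Counts were compared with edgeR 4.0.16 in R 4.3.3 (quasi-likelihood test, robust, two-sided, filterByExpr, TMM scaling), with p-values adjusted by Benjamini-Hochberg over the 15846 genes tested and called under 0.05. CPM are relative to TMM-scaled library sizes, fold changes are log2 of enhancer KO over WT, and each SE comes from the F statistic. The fit was tested on simulated counts. The members and lists were chosen with earlier results of these data known. Of 24411 symbols, 23334 matched GENCODE release M21 by symbol and 667 by an older symbol, which gave positions and lengths. Promoter stretches came from RefSeq, GRCm38.p6.

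Named were all inducible and constitutive members. Of each other role list, up to 3 past the threshold in each direction were named, or the 2 most abundant where none passed. Also named were the 3 members with the largest called changes in each direction, the 2 with most reads, up to 2 partners in each direction per list, and Atoh7. Exceptions are said to be so. Dnajc26, listed with the vesicle genes, is another name of Gak and was counted as Gak among the cochaperones. The listed Dnah12 was not analysed here. Alternatives were library size alone, RLE scaling, a stricter and no filter on low counts, DESeq2 1.42.0, limma-voom (limma 3.58.1), replicate number as a block, the unstranded column and leaving out each library. Others were WT replicate 1 as the only WT library, where its spread is assumed to be that of enhancer KO, and removal of a trend over GC content, spliced length and intron length (mgcv 1.9.3). The fit with WT replicate 1 alone sets a library of the female pattern against enhancer KO libraries of the male pattern. Sex and genotype cannot be told apart there.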

Additional observations from a re-analysis of the deposited data

Results flagged for a closer look

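Reads on the strand opposite to the gene were not used in the comparisons. For 2 members with at least 10% of their stranded reads there, the level was above every WT library on average in enhancer KO. Reads opposite to Dnajc14 averaged 6.54 CPM in enhancer KO, with 5.46, 6.10 and 5.0 CPM in WT and 6.27, 7.13 and 6.21 CPM in enhancer KO. Ormdl2 and Tmem198b overlap Dnajc14 on that strand in GENCODE. Reads opposite to Hspa12b averaged 2.96 CPM in enhancer KO, with 2.44, 2.69 and 2.72 CPM in WT and 2.74, 3.09 and 3.05 CPM in enhancer KO. Reads opposite to the called member Dnajc1 were lower in every enhancer KO library, with 9.65, 10.4 and 9.94 CPM in WT and 6.86, 6.19 and 6.88 CPM in enhancer KO. Those opposite to Dnajb7, at 0.617, 0.391 and 0.622 CPM in WT and 0.159, 0.104 and 0.168 CPM in enhancer KO, were lower as well. None of these differences was tested. On the opposite strand, Mllt10 overlaps Dnajc1 and Xpnpep3 overlaps Dnajb7 in GENCODE. Neither Dnajc14 nor Hspa12b was called on its own strand.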

How the results depend on the processing

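Beside the 16 members higher and 6 lower, leaving out 1 library gave 9 to 17 higher and 3 to 7 lower, while the share of all genes that were higher ran from 8.89% to 13.8%, and that of lower genes from 13.7% to 16.9%. With library size alone 2 members were lower, beside 1689 of the 15846 genes tested, against 2844 in the reported fit. With WT replicate 1 as the only WT library the median log2 difference was 0.08 for members and 0.02 over all genes. The causes were not tested, beyond fewer samples in the fits that leave libraries out. The other alternatives gave 12 to 21 members higher and 5 or 6 lower. Of the 14332 to 20131 genes tested in those fits, 1961 to 2590 were higher and 2324 to 3228 lower. Of members near 0, Hsph1 (log2 difference 0.01) ran from -0.0338 to 0.0630 when 1 library was left out, below 0 without WT replicate 3 or enhancer KO replicate 1, and was -0.0610 with WT replicate 1 as the only WT library. Dnajc7 (0.03) ran from -0.0157 (WT replicate 3 out) to 0.0885 and was also below 0 without enhancer KO replicate 3. Hsp90b1 (-0.04) ran from -0.0654 to 0.0046, above 0 without WT replicate 2, and was 0.0307 with library size alone. Low read numbers limit Hspa1a and Hspa1b, with 59 to 273 reads per library, and more so Dnajb13, with 13 to 48, and Hspa1l, with 2 to 20. The log2 difference between summed inducible and constitutive levels ran from 0.03 to 0.08.

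With replicate number as a block, 12 members were higher and 5 lower, beside 12.4% and 16.6% of all genes. The calls of Dnajb2 (edgeR adjusted p = 0.0578), Hspa1a (0.0753), Hspa2 (0.0675), Hspb8 (0.0642) and Dnajc9 (0.0723) were lost. Deviations of same-numbered WT and enhancer KO libraries from their group means correlated at 0.05, -0.04 and -0.08. Differently numbered libraries correlated at -0.10 to 0.12. The numbers thus showed no sign of pairing, but so few libraries cannot exclude one.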
